A study of Mus musculus with 2 samples.

Results

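The genes described here are the macrophage colony-stimulating factors and their receptors, which are the ligands Csf1, Il34 and Csf2 and the receptor genes Csf1r, Csf2ra and Csf2rb. These 6 genes were matched by symbol among 32285 genes counted in single cells of subcutaneous mouse ovarian tumors, and all 6 were found. The tumors were grown in female C57BL/6 mice, 6 to 8 weeks old, from SO cells, a syngeneic ovarian cancer line that lacks p53 and carries activated HRAS and MYC. The hosts were wild type (WT) or TSK, heterozygous for a duplication inside the fibrillin-1 gene Fbn1 that is carried by every cell of the host but not by the injected cancer cells. The tumors of several mice were pooled for each genotype, freed of red cells and dead cells, left unsorted and made into 1 library of 3′ tags for WT and 1 for TSK. Genotype, pool and library therefore cannot be told apart, no test between genotypes was possible, and the 95% intervals given cover counting error only.

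CSF-1 and IL-34 are distinct proteins that share 1 receptor, the tyrosine kinase CSF1R, which keeps monocytes and macrophages alive and guides their differentiation. GM-CSF, the product of Csf2, is made mainly by activated lymphocytes and binds the alpha chain encoded by Csf2ra together with the common beta chain encoded by Csf2rb, which signals through JAK2 and STAT5. The beta chain is also used by the receptors for IL-3 and IL-5. In tumors the CSF1R pathway is known as a main support of tumor-associated macrophages, and GM-CSF acts on neutrophils and dendritic cells as well.

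Cells were kept with at least 200 genes and 500 UMIs (unique molecular identifiers, which count RNA molecules once) and at most 10% mitochondrial UMIs. There were 263 barcodes found in both libraries, of which 251 in WT and 255 in TSK passed the other filters, and they were left out. This kept 1442 WT cells with a median of 7658.5 UMIs and 2961 TSK cells with a median of 7302 UMIs. Each cell was placed in a lineage from raw UMIs of marker lists that hold none of the 6 genes, and lineages are called "-like" for that reason. All 8 macrophage, all 9 fibroblast and all 8 endothelial markers were found in the cells named for them in both libraries. The same lists named the cells, so this is no separate check of the lineages. Markers without a UMI in their own cells included Ly6g in WT neutrophil-like, Krt7 in TSK cancer-like and Mcpt8 in TSK mast-like or basophil-like cells. Of the other lists, the median cell had at most 2 markers in every lineage named here except pericyte-like and smooth muscle-like cells, whose median was 4 fibroblast markers. Another 158 WT and 491 TSK cells carried mixed markers and 138 and 294 too few. The tags do not tell the duplicated Fbn1 allele from the normal one, so the genotype labels were not checked by them.

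The mouse genome holds a close copy of the beta chain gene, Csf2rb2, whose product serves IL-3, and the copies are shown first because the counts of both are used below. On GRCm38 (GENCODE M21), Csf2rb is at chr15:78325752-78353847 on the plus strand and Csf2rb2 at chr15:78282507-78305721 on the minus strand, 20030 bases apart. Their longest annotated coding sequences were 95.2% identical over 2631 aligned positions and encode 896 and 878 residues. The stretch below covers coding bases 2518 to 2637 of each, written 5′ to 3′, with the 7 bases that differ in capitals. The last 3 bases of the Csf2rb2 line are its stop codon, and Csf2rb reads on past that point.
Csf2rb: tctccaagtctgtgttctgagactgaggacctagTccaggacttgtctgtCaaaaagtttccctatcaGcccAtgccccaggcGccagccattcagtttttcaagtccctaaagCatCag
Csf2rb2: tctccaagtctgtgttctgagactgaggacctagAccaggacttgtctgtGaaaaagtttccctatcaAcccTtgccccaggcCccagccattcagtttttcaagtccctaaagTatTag
Of all 90-base windows of the Csf2rb transcript, 8.19% were found unchanged in the Csf2rb2 transcript, and of the windows in its last 500 bases, where 3′ tags lie, 0 of 411 were. Some reads of the coding part can still have been shared or dropped, so the split between the copies is uncertain.

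The other members lie apart from this pair and from each other. Csf1 is at chr3:107741048-107760469, Il34 at chr8:110741829-110805924, Csf2 at chr11:54247271-54249667 and Csf2ra at chr19:61223957-61228429, all 4 on the minus strand. The 250 bases before the RefSeq start (GRCm38.p6) of Csf2ra, at chr19:61228419-61228668, and of Csf2rb2, at chr15:78305722-78305971, are shown on the coding strand because both genes were read mainly in myeloid cells. Capitals mark GAGGAA, the core that ETS factors such as the myeloid regulator PU.1 (Spi1) bind, or its reverse complement TTCCTC.
Csf2ra: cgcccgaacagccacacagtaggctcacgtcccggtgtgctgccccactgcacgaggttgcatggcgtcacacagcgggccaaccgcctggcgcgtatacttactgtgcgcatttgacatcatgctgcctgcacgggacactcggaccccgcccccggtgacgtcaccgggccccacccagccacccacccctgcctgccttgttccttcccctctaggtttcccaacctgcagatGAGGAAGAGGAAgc
Csf2rb2: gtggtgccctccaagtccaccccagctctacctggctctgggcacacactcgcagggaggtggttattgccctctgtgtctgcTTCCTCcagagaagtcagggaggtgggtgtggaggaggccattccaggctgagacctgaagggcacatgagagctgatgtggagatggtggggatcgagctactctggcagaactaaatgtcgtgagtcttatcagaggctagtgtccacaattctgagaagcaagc
The 6 letters were found 2 times, side by side, in the Csf2ra window and 1 time in that of Csf2rb2, on the other strand. They were not in the windows of Csf1 and Csf2. Of 32851 windows of this length before start sites, 23.3% held them on either strand, so a match by itself is common.

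Summed over all cells kept, Csf1 gave 1201 UMIs in WT and 1451 in TSK, Il34 gave 218 and 703, Csf1r 1345 and 1360, Csf2ra 580 and 748, Csf2rb 1323 and 1014, and Csf2 only 6 and 8. In UMIs per 1000000 UMIs of the whole library (CPM), 4 of these genes were lower in TSK, with Csf1 at 70.4 and 31.8, Csf1r at 78.8 and 29.8, Csf2ra at 34.0 and 16.4, and Csf2rb at 77.5 and 22.2 CPM. Il34 stood at 12.8 CPM in WT and 15.4 CPM in TSK. The barcodes found in both libraries, left out here, held 85 Il34 UMIs in WT and 1 in TSK, and 64 and 0 of Csf2rb. The WT value of Il34 therefore depends on that filter. Cancer-like cells held 17.1% of the UMIs of the WT library and 59.3% of those of the TSK library. The values below are therefore given within lineages, as CPM of the UMIs of that lineage.

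**Figure D1:**
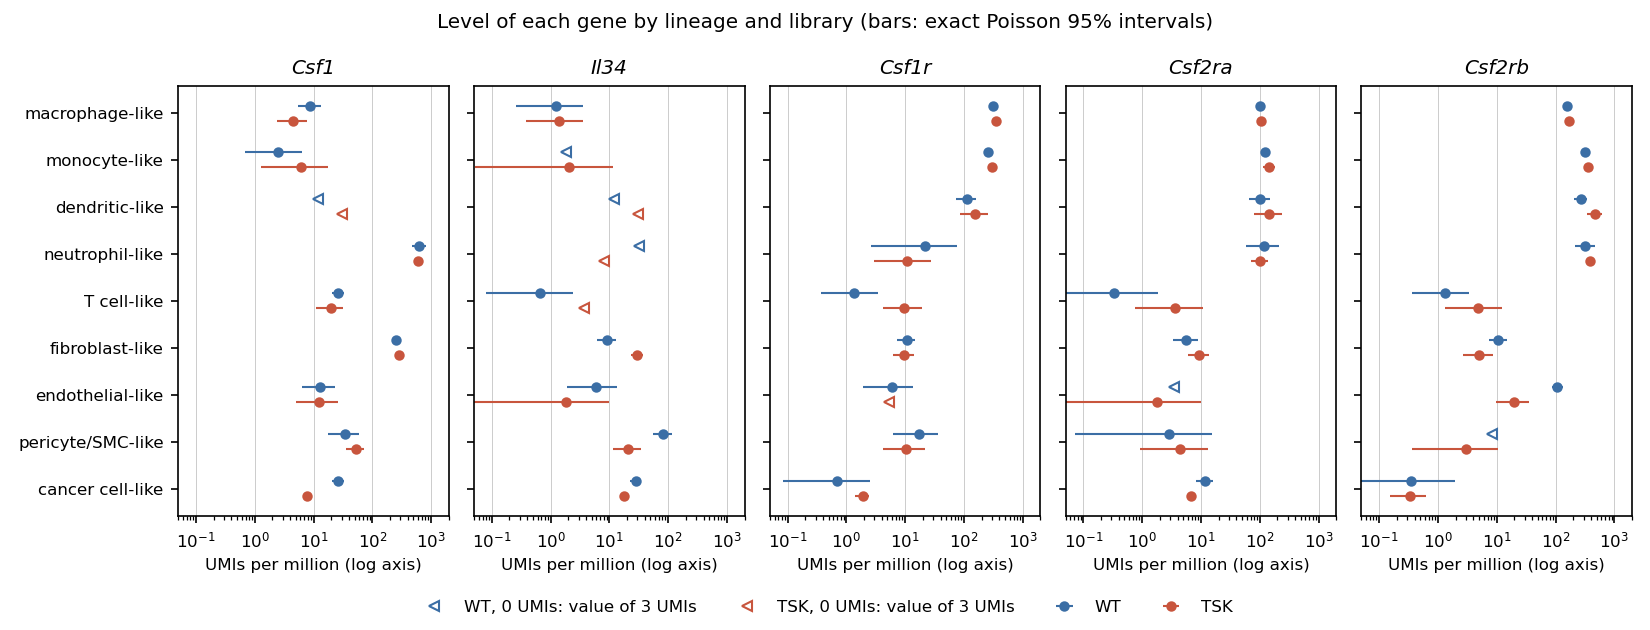
Level of 5 of the genes in each lineage, in UMIs per 1000000 UMIs of that lineage on a log axis, for the WT (blue) and TSK (red) library; bars are exact Poisson 95% intervals and open triangles mark a lineage without a UMI, drawn at the value of 3 UMIs. Csf1 was highest in neutrophil-like and fibroblast-like cells, Csf1r in macrophage-like and monocyte-like cells, and Csf2rb in myeloid cells, with a gap between the libraries in endothelial-like cells.

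Csf1, the ligand of CSF1R found in most tissues, came mainly from fibroblast-like cells. These cells gave 808 of its UMIs in WT, which is 67.3% (64.5 to 69.9), and 734 in TSK, which is 50.6% (48.0 to 53.2). The second identified source in TSK was neutrophil-like cells, with 219 UMIs or 15.1% (13.3 to 17.0), while in WT they gave 58 UMIs or 4.83% (3.69 to 6.20). They were 1.87% of the cells and 0.545% of the UMIs in WT, and 5.57% and 0.80% in TSK. Fibroblast-like cells held 18.8% of all UMIs in WT and 5.62% in TSK, so the makeup of the libraries differed in both lineages. The part of each in the larger neutrophil-like share was not tested. The Csf1 shares rest on deep cells. With an upper limit of 10000 UMIs per cell, which kept 26 of 142 WT and 100 of 221 TSK fibroblast-like cells, the fibroblast-like share was 5.81% in WT and 27.9% in TSK and the neutrophil-like share 33.7% and 45.5%.

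Relative to their own UMIs, neutrophil-like cells held the highest Csf1 level of the lineages with at least 10 cells. The level was 624 CPM (474 to 807) in 27 WT cells and 600 CPM (523 to 685) in 165 TSK cells, which is -0.057 (-0.48 to 0.39) as a log2 ratio of TSK to WT, the scale of all log2 ratios here. A Csf1 UMI was seen in 15 of the 27 WT cells and 71 of the 165 TSK cells, at median depths of 3715 and 2010 UMIs. At 500 UMIs per cell the shares were 25.9% and 23.0%. In T-like cells, which are not known as a main source, they were 0.739% and 0.758% at that depth, against 12.1% and 5.30% unthinned at medians of 6840.5 and 2834 UMIs. One WT cell gave 29.3% of the WT neutrophil-like UMIs, whereas no TSK cell gave more than 6.39%. The 9 fibroblast markers, read in the same neutrophil-like cells, summed to 108 CPM in WT and 110 CPM in TSK, compared with 40839 and 38687 CPM in fibroblast-like cells.

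In fibroblast-like cells Csf1 stood at 252 CPM (235 to 270) in WT and 286 CPM (266 to 307) in TSK, or 0.18 on the log2 scale (0.034 to 0.33). The median over all genes tested in these cells was 0.26, and scaling by a median gene ratio close to that value turned the Csf1 value to -0.066. It was 1.39 with an upper limit of 10000 UMIs per cell, from 10 WT and 128 TSK UMIs, and 0.48 without cells that carry 2 markers of another list, so the size of the difference depended on which cells were kept. The gene was spread over many cells, with a UMI in 109 of 142 WT cells and 158 of 221 TSK cells. Fibroblast-like cells with a UMI of Clec3b, Pi16 or Cd34, genes of adventitial and progenitor-like fibroblasts, held 254 CPM over both libraries (240 to 268), and those without held 402 CPM (350 to 461). The cells without were 9 in WT, at 572 CPM, and 41 in TSK, at 367 CPM, and having no UMI of these genes also depends on depth.

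Other lineages held less Csf1. Pericyte-like and smooth muscle-like cells stood at 33.8 CPM in WT and 51.9 CPM in TSK, T-like cells at 26.3 and 19.5 CPM, endothelial-like cells at 12.9 and 12.6 CPM, and the receiving phagocyte-like cells at 5.82 and 4.65 CPM. In cancer-like cells Csf1 stood at 26.1 CPM (20.6 to 32.7) in WT and 7.68 CPM (6.67 to 8.80) in TSK, a log2 ratio of -1.76 (-2.15 to -1.37). A single WT cell gave 23.7% of the 76 WT UMIs there. The 9 fibroblast markers summed to 510 CPM in WT and 353 CPM in TSK cancer-like cells, and their part in this difference was not tested.

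Il34, the second ligand of CSF1R, which is best known from skin and brain, had its largest source in cancer-like cells. They gave 82 of its UMIs in WT, or 37.6% (31.2 to 44.4), and 474 in TSK, or 67.4% (63.8 to 70.9). Cells of mixed markers gave 30.7% in WT and 17.8% in TSK. Cancer-like cells held 17.1% of all UMIs in WT and 59.3% in TSK, so the TSK share was near their part of all UMIs. Under the same upper limit they gave only 8.33% and 8%, from 1 and 4 UMIs. The level in these cells was 28.2 CPM (22.4 to 34.9) in WT and 17.5 CPM (16.0 to 19.2) in TSK, a log2 ratio of -0.69 (-1.03 to -0.33), and its direction turned to 1.42 once cells with 2 markers of another list were left out, with 2 WT UMIs remaining. The 88 WT and 890 TSK cancer-like cells were deep, with medians of 34128.5 and 28658.5 UMIs. A UMI of Il34 was seen in 30.7% and 24.0% of them, and at 500 UMIs per cell in 0% and 1.011%. Cancer-like cells with a UMI of the proliferation genes Mki67 or Top2a held 33.7 CPM in WT and 16.6 CPM in TSK, a log2 ratio of -1.02 (-1.40 to -0.62). Those without held 17.3 and 25.5 CPM, from 17 and 70 UMIs, a log2 ratio of 0.57 (-0.21 to 1.42). The order of these groups was thus opposite in the libraries. Over both libraries they held 17.9 CPM (16.3 to 19.5) and 23.4 CPM (18.7 to 28.8), intervals that overlap.

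Stromal lineages held Il34 as well, and the libraries differed in opposite directions in fibroblast-like and pericyte-like cells. Fibroblast-like cells held 29 UMIs in WT, at 9.06 CPM (6.07 to 13.01), and 76 in TSK, at 29.6 CPM (23.3 to 37.1), a log2 ratio of 1.71 (1.07 to 2.38). It was 1.52 in the fibroblast-like cells with a UMI of Clec3b, Pi16 or Cd34, at 9.32 and 26.7 CPM. The ratio was also 1.52 in the cluster named fibroblast from the same marker lists, at 10.6 and 30.2 CPM. It was 3.71 without cells that carry 2 markers of another list, from 1 WT and 18 TSK UMIs. The WT value rests on few cells, with 93.1% of its 29 UMIs in 15 cells and 27.6% in 1 cell, while in TSK 23 cells held 76.3% and no cell more than 9.21%. The 8 cancer markers summed to 24.0 CPM in WT and 144 CPM in TSK fibroblast-like cells. Their part in the Il34 difference was not tested. Pericyte-like and smooth muscle-like cells held 29 UMIs in WT, at 81.7 CPM (54.7 to 117), and 14 in TSK, at 20.7 CPM (11.3 to 34.8), a log2 ratio of -1.98 (-3.01 to -1.01). These were 17 WT and 46 TSK cells, and 1 WT cell gave 41.4% of the WT UMIs. Neutrophil-like and dendritic-like cells held no Il34 UMI, and phagocyte-like cells held 3 in WT and 5 in TSK.

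Read against all genes with at least 20 UMIs, the members passed 2-fold in some lineages. In fibroblast-like cells 5 of the 6 genes were measured, where 9.1% of all genes were at least 2-fold higher in TSK and 4.01% lower. Il34 was that much higher and Csf2rb that much lower. The Csf2rb log2 ratio was -1.07 (-2.11 to -0.11), from 34 WT and 13 TSK UMIs. The 8 macrophage markers summed to 80.6 CPM in WT and 41.7 CPM in TSK fibroblast-like cells, and their part in it was not tested. In cancer-like cells 4 were measured, with Csf1r at least 2-fold higher and Csf1 lower, where 11% of all genes were higher and 9.25% lower. The Csf1r log2 ratio was 1.46 (-0.47 to 4.54), an interval that held 0, from 2 WT and 51 TSK UMIs. The 8 macrophage markers summed to 16.5 CPM in WT and 29.3 CPM in TSK cancer-like cells, and their part in it was not tested. In pericyte-like and smooth muscle-like cells 2 were measured and Il34 was lower, where 14.7% of all genes were higher and 7.29% lower. In neutrophil-like cells none of 3 was past 2-fold, where 20.5% of all genes were higher and 13.7% lower.

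Csf2 was rare. Its 14 UMIs came from 8 cells, 3 in WT and 5 in TSK. T-like cells held 3 UMIs in each library, cells of mixed markers another 3 in each, and a fibroblast-like and a cancer-like TSK cell held 1 each. A UMI of the T cell receptor gene Cd3e was present in 7 of the 8 cells, among them all the mixed ones, and these cells held 13 of the 14 Csf2 UMIs. Of the 8 cells, 5 had a UMI of the helper T cell gene Cd4 and 0 of Cd8a. In a clustering that left out the 6 genes, 12 of the 14 UMIs lay in the cluster led by Ctla4, Il2ra and Icos, at 13.2 CPM. No UMI was seen in 866 phagocyte-like, 192 neutrophil-like or 104 endothelial-like cells. At this depth a difference between the libraries in Csf2 was not detectable, with 1.00 CPM (0.206 to 2.92) in WT and 3.66 CPM (0.754 to 10.7) in TSK T-like cells.

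**Figure D2:**
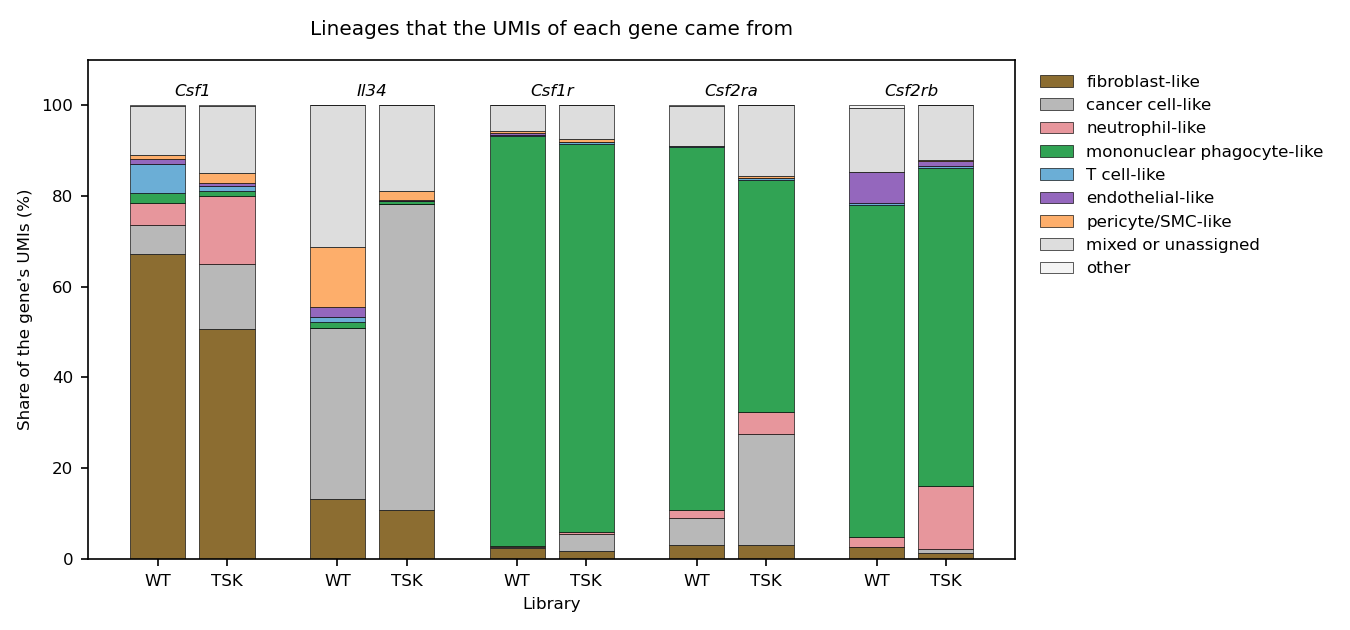
Share of the UMIs of 5 genes that came from each lineage, in percent of the gene's UMIs in the cells kept, 1 bar for the WT and 1 for the TSK library. Fibroblast-like cells gave 67.3% of Csf1 in WT and 50.6% in TSK, cancer-like cells 37.6% and 67.4% of Il34, and phagocyte-like cells 90.3% and 85.4% of Csf1r.

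Csf1r, the receptor for both CSF-1 and IL-34, was read almost only in mononuclear phagocyte-like cells, which join the macrophage-like, monocyte-like and dendritic-like cells. They gave 1214 UMIs in WT, or 90.3% (88.5 to 91.8), and 1162 in TSK, or 85.4% (83.5 to 87.3). The level was 283 CPM (267 to 299) in 374 WT cells and 338 CPM (319 to 358) in 492 TSK cells, a log2 ratio of 0.26 (0.14 to 0.37). The median over all genes in these cells was 0.23, and scaling by a median gene ratio close to that value left 0.037. An upper limit of 10000 UMIs per cell raised the ratio to 0.58. In the order of levels, macrophage-like cells came first at 314 and 350 CPM in WT and TSK, then monocyte-like cells at 261 and 304 CPM and dendritic-like cells at 112 and 154 CPM. In TSK the intervals of the macrophage-like and monocyte-like cells overlapped, and in WT they did not.

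A Csf1r UMI was seen in 73.8% of WT and 68.9% of TSK phagocyte-like cells, at median depths of 9610 and 5999 UMIs. In T-like cells, which should lack the receptor, the shares were 0.985% and 1.52%, at medians of 6840.5 and 2834 UMIs. After thinning to 500 UMIs they were 12.03% and 14.02% in phagocyte-like cells and 0% in T-like cells. Neutrophil-like cells held only 2 and 4 UMIs of Csf1r. Fibroblast-like cells had 10.6 CPM of it in WT and 9.74 CPM in TSK, and cancer-like cells 0.687 and 1.88 CPM.

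The alpha chain gene Csf2ra was shared more evenly by the myeloid lineages. It stood at 108 CPM (98.2 to 118) in WT and 111 CPM (99.9 to 122) in TSK phagocyte-like cells, a log2 ratio of 0.038 (-0.16 to 0.24). Neutrophil-like cells, at 118 and 101 CPM, and dendritic-like cells, at 100 and 144 CPM, had intervals that overlapped with those of phagocyte-like cells. Phagocyte-like cells gave 79.8% of its UMIs in WT and 50.9% in TSK, and cancer-like cells gave 5.86% and 24.3%. The level in cancer-like cells was low, at 11.7 CPM in WT and 6.72 CPM in TSK, and their share went with their part of all UMIs. In T-like cells it was 0.333 and 3.66 CPM.

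The common beta chain gene Csf2rb was highest in neutrophil-like, monocyte-like and dendritic-like cells among the lineages with at least 10 cells. Neutrophil-like cells held 323 CPM (218 to 461) in WT and 389 CPM (328 to 458) in TSK, a log2 ratio of 0.27 (-0.31 to 0.89), and monocyte-like cells 317 CPM (290 to 346) and 359 CPM (308 to 416). Dendritic-like cells held 269 CPM (208 to 341) and 463 CPM (338 to 620), a log2 ratio of 0.79 (0.21 to 1.35) over 20 WT and 17 TSK cells. Their median depths were 12509.5 UMIs in WT and 3882 in TSK. The 8 dendritic markers summed to 950 and 2317 CPM in them, and the part of this in the Csf2rb difference was not tested. Macrophage-like cells were lower, at 160 CPM (144 to 176) and 171 CPM (157 to 187). Over all phagocyte-like cells the level was 225 CPM in WT and 206 CPM in TSK, a log2 ratio of -0.13 (-0.27 to 0.015), while it was 0.10 in macrophage-like, 0.18 in monocyte-like and 0.79 in dendritic-like cells, the 3 lineages they join. The first of these turned to -0.20 with lineages taken from clusters and to -0.083 when scaled by the median gene ratio. Macrophage-like cells were 177 of the 374 WT cells and 359 of the 492 TSK cells. T-like cells held 4 UMIs of Csf2rb in each library, at 1.33 and 4.87 CPM, and the few mast-like or basophil-like cells, 3 in WT and 2 in TSK, held 10 and 1 UMIs, which are 654 and 370 CPM.

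Endothelial-like cells carried Csf2rb in WT and much less in TSK. The 54 WT cells held 91 UMIs, at 107 CPM (86.3 to 132), and the 50 TSK cells 11 UMIs, at 19.8 CPM (9.88 to 35.4), a log2 ratio of -2.44 (-3.49 to -1.53). A UMI was seen in 33 of the 54 WT cells, at a median depth of 11905.5 UMIs, and 10 of the 50 TSK cells, at 9222 UMIs, and no WT cell gave more than 16.5% of the UMIs. After thinning the shares were 3.70% and 2%, which are 2 cells and 1 cell. Csf2rb was the only gene of the 6 measured in these cells, where 17.8% of all genes were at least 2-fold higher in TSK and 5.74% at least 2-fold lower. Csf2rb2 differed likewise, with 55 UMIs at 64.7 CPM in WT and 9 UMIs at 16.2 CPM in TSK, a log2 ratio of -2.0 (-3.20 to -0.97).

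The beta chain in endothelial-like cells was not joined by the other receptor genes. In WT these cells held 5 UMIs of Csf1r and 0 of Csf2ra, against 1214 and 463 in phagocyte-like cells, and the 8 macrophage markers summed to 47.1 CPM in WT and 37.8 CPM in TSK, compared with 4961 CPM in WT phagocyte-like cells. Il3ra, the alpha chain that pairs with the beta chain for IL-3, stood at 20.01 CPM in WT and 45.0 CPM in TSK, a log2 ratio of 1.17 (0.22 to 2.15). The cancer markers summed to 7.06 CPM in WT and 291 CPM in TSK endothelial-like cells, and their part in the difference was not tested. In the cluster led by the endothelial genes Fabp4, Cdh5 and Gpihbp1, named from the same marker lists, Csf2rb stood at 135 CPM in WT and 21.6 CPM in TSK. Without cells that carry 2 markers of another list, the log2 ratio was -1.52 (-3.04 to -0.28), from 42 and 6 UMIs.

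**Figure D3:**
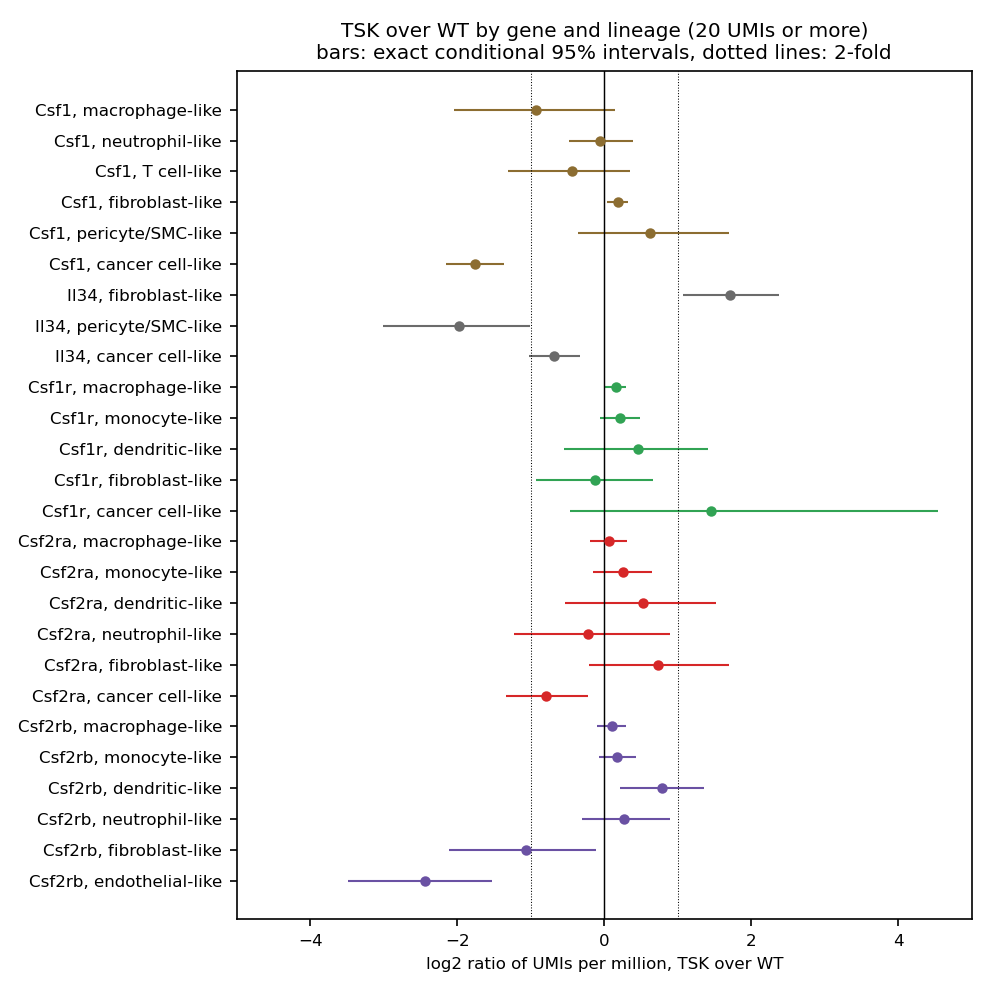
The log2 ratio of TSK over WT of each gene and lineage with 20 UMIs or more over both libraries and 1 or more in each. Bars are exact conditional 95% intervals that cover counting error only and dotted lines mark 2-fold. Most ratios in myeloid cells lie near 0, while Il34 in fibroblast-like cells is at 1.71 and Csf2rb in endothelial-like cells at -2.44.

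The split between the copies of the beta chain gene differed by lineage. Csf2rb2 made up 19.7% (17.5 to 22.0) of the UMIs of both copies in WT phagocyte-like cells and 15.3% (12.9 to 17.9) in TSK. In endothelial-like cells it made up 37.7% (29.8 to 46.1) and 45.0% (23.1 to 68.5), and in WT fibroblast-like cells 61.4% (50.4 to 71.6). In phagocyte-like cells the level of Csf2rb2 was 55.2 CPM in WT and 37.2 CPM in TSK, a log2 ratio of -0.57 (-0.89 to -0.25). Csf2rb2 gave 54 UMIs in WT and 9 in TSK fibroblast-like cells, a log2 ratio of -2.27 (-3.47 to -1.24).

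The receptors varied among phagocytes in different orders. Clustering without the 6 genes gave 3 phagocyte clusters. Clusters were named from the same marker lists, whose genes were not left out of the clustering, so agreement is no separate check. Of the 3320 cells named both by markers and by cluster, 87.2% fell in the same lineage. The share was 96.3% when macrophage, monocyte and dendritic cells are counted as 1 lineage. The phagocyte clusters therefore did not follow the marker names closely, with 118 monocyte-like cells in clusters named macrophage and 146 macrophage-like cells in the cluster named monocyte. The cluster led by Ccl8, F13a1, Mrc1 and C1qa held 117 cells. Of these genes, Mrc1 and C1qa are on the macrophage marker list and F13a1 is on the monocyte list. This cluster held the highest Csf1r level, at 475 CPM (408 to 550) in WT and 587 CPM (531 to 646) in TSK. The cluster led by Arg1, Ccl24 and Chil3 stood at 269 and 281 CPM and that led by Lyz2, H2-Ab1 and Ccr2 at 256 and 261 CPM, and these do not differ beyond their intervals. For Csf2rb the order was the opposite, with 254 CPM (231 to 278) in WT and 309 CPM (270 to 351) in TSK in the Lyz2 cluster, 238 and 208 CPM in the Arg1 cluster and 53.7 CPM (32.8 to 82.9) and 116 CPM (91.6 to 144) in the Ccl8 cluster. Csf2rb in the Ccl8 cluster differed between libraries by a log2 ratio of 1.11, on 20 WT and 80 TSK UMIs. Csf2ra was also lowest in the Ccl8 cluster, at 69.8 and 78.0 CPM, against 103 to 123 CPM in the others. An unnamed cluster of 46 cells, all from WT and with a median of 691 UMIs, led by Cd24a, Serpinb2 and Retnlg, held 12 UMIs of Csf2rb, at 329 CPM.

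**Figure D4:**
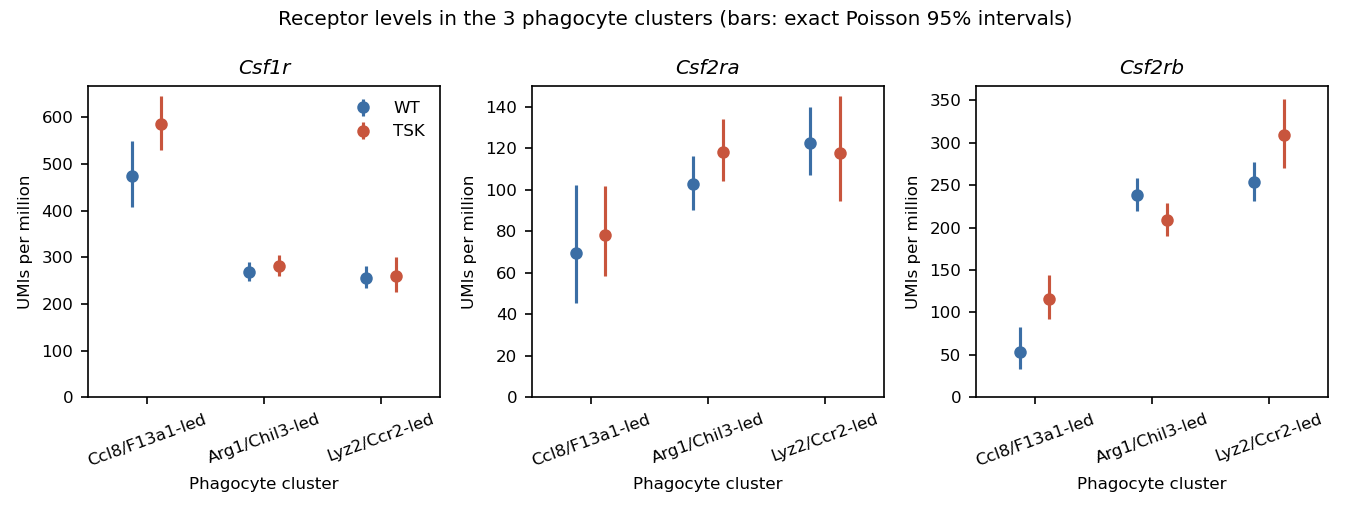
Levels of the receptor genes Csf1r, Csf2ra and Csf2rb in the 3 phagocyte clusters, in UMIs per 1000000 on linear axes that start at 0, for the WT (blue) and TSK (red) library with exact Poisson 95% intervals. Csf1r is highest in the Ccl8 and F13a1 cluster, at 475 and 587 CPM, where Csf2rb is lowest, at 53.7 and 116 CPM.

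Many single phagocytes carried the receptors for both factors. Csf1r was seen together with Csf2ra and Csf2rb in 143 of 374 WT phagocyte-like cells (38.2%) and 134 of 492 TSK cells (27.2%), with the WT cells deeper, at medians of 9610 against 5999 UMIs. Neutrophil-like cells carried both chains of the GM-CSF receptor in 5 of 27 WT and 14 of 165 TSK cells, at median depths of 3715 and 2010 UMIs. UMIs of all 3 receptor genes were seen in 0 of these 27 and 165 cells, which allows a share of cells with such UMIs of up to 11.1% in WT and 1.82% in TSK and, at these depths, sets no limit on cells that express them. The ligand and the receptor Csf1 and Csf1r were seen in the same phagocyte-like cell in 7 WT and 11 TSK cells.

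Around the receptors, 4 lists of related genes were read in phagocyte-like cells, where 9.43% of all genes were at least 2-fold higher in TSK and 3.55% lower. Of the 6 genes, 4 were measured there and none was past 2-fold. Of 10 genes of CSF1R signalling none was past 2-fold, with a median log2 ratio of 0.15, and the adaptor Tyrobp was at 0.18 and the phospholipase gene Plcg2 at -0.42. Of 10 macrophage transcription factor genes none was past 2-fold, with a median of 0.022, Spi1 at 0.31 and Maf at 0.65. Of 11 genes of GM-CSF and STAT5 signalling, 2 were past 2-fold lower and none higher, with a median of -0.30. These were the feedback inhibitors Cish, at 69.4 CPM in WT and 32.8 CPM in TSK, a log2 ratio of -1.08 (-1.41 to -0.76), and Socs1, at 59.4 and 23.2 CPM, a log2 ratio of -1.35 (-1.73 to -0.99). The STAT5 target Pim1 stood at 603 and 401 CPM, a log2 ratio of -0.59, and Jak2 at 190 and 137 CPM, a log2 ratio of -0.48. Of 12 related cytokine and receptor genes 7 were measured, with the KIT ligand gene Kitl higher at 1.22 and Kit lower at -2.32, from 50 WT and 8 TSK UMIs. The median of all genes in these cells was 0.23. The phagocyte-like cells of the libraries differed in makeup, with macrophage-like cells 177 of 374 in WT and 359 of 492 in TSK, and the macrophage markers summed to 4961 and 8042 CPM and the monocyte markers to 2684 and 1667 CPM. Read within macrophage-like cells, Cish stood at -1.10 and Socs1 at -1.30, and within monocyte-like cells Cish stood at -0.35 (-0.92 to 0.18) and Socs1 at -1.06 (-1.89 to -0.32). Jak2 was at -0.35 in macrophage-like and 0.031 in monocyte-like cells. Il1b of the same list was at -0.26 in macrophage-like cells but past 2-fold higher in monocyte-like cells, at 1.04 (0.92 to 1.16). Socs3 was at 0.41 (0.24 to 0.59) and -0.26 (-0.54 to 0.0057). The list median was -0.34 in macrophage-like and -0.26 in monocyte-like cells, where the medians of all genes were 0.20 and 0.18. The reading within these lineages was chosen after the data were seen.

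The signalling lists were also read in endothelial-like cells, where Csf2rb was lower. Of the GM-CSF and STAT5 genes 9 of 11 were measured and 4 were past 2-fold lower, namely Cish, Socs1, Socs3 and Pparg, where 5.74% of all genes were at least 2-fold lower and 17.8% higher. Socs3 stood at 208 CPM in WT and 75.5 CPM in TSK, a log2 ratio of -1.46 (-1.99 to -0.97). Bhlhe40, a transcription factor gene of the same list, went the other way, at 63.6 and 126 CPM, a log2 ratio of 0.99 (0.45 to 1.53). With at least 50 UMIs asked of a gene, 2 of the listed genes were past 2-fold. The cancer markers, at 7.06 and 291 CPM, moved with the library in these cells too, and their part in these values was not tested. Of the CSF1R signalling genes 3 were measured and none was past 2-fold. The median of all genes in these cells was 0.38. Lower values of listed genes were not limited to endothelial-like cells. Socs1 stood at -1.97 (-3.03 to -0.91) in neutrophil-like and -0.77 (-1.05 to -0.50) in fibroblast-like cells. The GM-CSF and STAT5 list had a median of 0.063 in fibroblast-like cells. In pericyte-like and smooth muscle-like cells 7 of its genes were measured, with 3 past 2-fold lower and 1 higher. Of all genes there, 7.29% were lower and 14.7% higher.

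The genes most like each member were found by Pearson correlation of log2(CPM + 10) over 21 sums of a lineage in a library, which share depth and library and are not independent, so the values describe these sums only. For Csf1 they were Rab15 (0.91), Steap4 (0.91) and F3 (0.89), and for Il34 Kctd15 (0.98), Chrna1os (0.97) and Nat14 (0.95). For Csf1r they were Pid1 (0.98), P2ry6 (0.97) and Tbxas1 (0.97), for Csf2ra Gpr35, Pira2 and Cd300a (each 0.98), and for Csf2rb its copy Csf2rb2 (0.94), F10 (0.94) and Skap2 (0.93). Csf2 had too few UMIs for this measure.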

How the data were processed

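For each library the authors deposited raw UMI counts per gene and barcode, made with Cell Ranger (7.1.0 in the file headers, 7.1.1 in the submitters' notes, build mm10), and the counts carry no normalization. The genes and the lists were chosen with earlier results of these data known, and the rule that places cells in lineages was set after the data were seen. Each marker was scaled as x/(x + s), with x its UMIs per 10000 and s set from the top 2% of cells, and a list was scored by its mean. A cell took the highest list with at least 2 markers detected, if it scored 2 times any unrelated list. There were 252 WT and 614 TSK cells within 1.5 times of that cut. Doublets were left in and no caller was run. Levels have exact Poisson intervals, shares exact binomial ones and ratios exact conditional ones (95%). Genes past 2-fold were counted among those with 20 UMIs over both libraries. Named genes were the 6 members, the listed genes and the 3 most correlated with each member. Clusters (2000 variable genes, 30 components, 20 neighbours, resolution 1) used leidenalg 0.10.2 and igraph 0.11.9 in Python 3.11.15 with scipy 1.17.1, and sequences were aligned with Biopython 1.88. The ratio calculation was tested on simulated data. One result is not reported here.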

Additional observations from a re-analysis of the deposited data

Results flagged for a closer look

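In 8 cases the counting interval of the TSK over WT log2 ratio in a lineage lay apart from 0 in one direction while another lineage lay in the other, and the difference between lineages was not tested across replicates. For Csf1 these were 0.18 in fibroblast-like cells, where the median over all genes was 0.26, and -1.76 in cancer-like cells. The Csf1 sign in fibroblast-like cells turned when scaled by the median gene ratio. Il34 stood at 1.71 in fibroblast-like cells, -1.98 in pericyte-like and smooth muscle-like cells and -0.69 in cancer-like cells. The last of these turned direction once cells with 2 markers of another list were left out. Csf2rb stood at 0.79 in dendritic-like cells, -1.07 in fibroblast-like cells and -2.44 in endothelial-like cells. The dendritic-like cells had median depths of 12509.5 UMIs in WT and 3882 in TSK, and the fibroblast-like value rests on 34 and 13 UMIs.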

How the results depend on the processing

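No paired analysis was possible because each genotype has 1 library and the labels give no replicate numbers. The filters, lineage calls, scaling and weights were each changed alone. Of 196 alternative values of a log2 ratio, 172 stayed within the counting interval of the reported value. The sign changed in 21, of which 3 had an interval apart from 0 and 18 an interval that held 0. Scaling by the median gene ratio gave -0.066 for Csf1 in fibroblast-like cells, -0.031 for Csf1r in macrophage-like cells, and 0.037 for Csf1r, -0.18 for Csf2ra and -0.35 for Csf2rb in phagocyte-like cells. An upper limit of 10000 UMIs and genes per cell gave 1.39 for Csf1 in fibroblast-like cells, 0.58 for Csf1r in phagocyte-like cells and -1.57 for Il34 in cancer-like cells. Leaving out cells with 2 markers of another list gave 0.48 for Csf1 and 3.71 for Il34 in fibroblast-like cells, 1.42 for Il34 in cancer-like cells and -1.52 for Csf2rb in endothelial-like cells. Of the source shares, given for WT and then TSK, the upper limit put 5.81% and 27.9% of Csf1 in fibroblast-like and 33.7% and 45.5% in neutrophil-like cells, 8.33% and 8% of Il34 in cancer-like cells and 84.4% and 89.7% of Csf1r in phagocyte-like cells. Leaving out cells with 2 other markers gave 28.3% and 23.1%, 31.02% and 49.3%, 12.5% (WT, the TSK share staying within its interval) and 94.8% and 94.3%. Cluster-based lineages gave 70.9% and 54.7% for fibroblast-like and, in TSK, 19.3% for neutrophil-like cells, 51.8% and 83.4% for cancer-like cells and 94.8% and 88.5% for phagocyte-like cells. Keeping barcodes found in both libraries gave 64.4% for Csf1 in WT fibroblast-like cells. The causes were not tested. Of 50 alternative counts of listed genes past 2-fold, 19 moved, as did 45 of 80 alternative source shares and 10 of 10 alternative shares of cells. Depth limited Csf2, and WT values in neutrophil-like, dendritic-like and pericyte-like cells rest on 27, 20 and 17 cells.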
